A study of Homo sapiens with 4 samples.

Results

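The 52 genes described here are those whose symbol begins with EIF and a digit, the eukaryotic translation initiation factors and their close relatives, out of 19775 genes that had a probe set of their own on the array. They were taken from the platform's gene symbols alone, with EIF1AY left out, and comprised 48 protein-coding genes and 4 non-coding partner transcripts. The measurements came from U937 cells, an established human line grown from a lymphoma of monocytic character. Samples in the treated group were given 100 nM shikonin, a naphthoquinone pigment of gromwell roots, for 3 h. The controls were given dimethyl sulfoxide (DMSO), the solvent. Each group had 2 samples of the 1 line, each on its own short-oligonucleotide array, and a duration was given for the shikonin samples only. The comparison asked which transcripts differed between shikonin and the solvent.

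Translation of most messenger RNAs begins when eIF2, loaded with GTP and the initiator tRNA, joins eIF1, eIF1A, eIF3 and eIF5 on the small ribosomal subunit. The eIF4 proteins bind the cap, unwind the message and bring it to that subunit, and eIF5B then joins the large subunit. Cells slow this process under stress mainly by phosphorylating eIF2, which 4 kinases can do, and by the eIF4E-binding proteins, which keep eIF4E from eIF4G. Both switches act on proteins, and an array of transcripts does not read them.

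Values are the authors' linear probe set signals, and changes are log2 ratios of shikonin over DMSO on a scale of log2(signal + 9.94), which understates the change of dim genes. A gene was called when its brightest probe set had a limma adjusted p under 0.05 over 32768 probe sets. The arrays were alike, with median signals of 61.0 and 63.7 after shikonin and 60.5 and 62.2 in DMSO, and HMOX1, a stress-induced haem-degrading enzyme, read 23424 and 24370 after shikonin against 374 and 459 in DMSO. Of 10 monocytic lineage markers on the array, 9 were bright enough to test. All 10 summed to 63942 and 67869 after shikonin and to 66801 and 70956 in DMSO. PTPRC, a leukocyte phosphatase, was the 1 called, lower (log2 change -0.35). That call ended on omitting DMSO 2 (log2 change -0.29) or shikonin 2 (-0.28). Of its 3 other tested probe sets, 2 were called lower as well, and the 3 ran from -0.85 to 0.11. FCGR1A was too dim to test. The neutrophil elastase gene ELANE, made by immature myeloid cells, was the brightest marker, with mean signals of 20023 after shikonin and 20511 in DMSO. MPO, of the same list, was dim, at 60.7 after shikonin and 77.9 in DMSO. The 5 T cell markers summed to 128 and 158 after shikonin and to 182 and 141 in DMSO, and the 4 B cell markers to 688 and 625 against 615 and 652. The 3 erythroid markers summed to 158 and 112 after shikonin against 131 and 156 in DMSO, and the 6 epithelial and fibroblast markers to 307 and 370 against 295 and 312. A signal pools all cells of a culture, so fewer cells with a transcript and less of it per cell cannot be told apart.

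Most initiation factor transcripts were abundant and changed little. Of 50 EIF symbols tested, 7 were called higher and 4 lower (22.0%), where 11.7% of all genes were called. Brighter genes were called more often: 38 of the 47 coding EIF genes tested lay among the brightest 25% of genes, in which 19.9% were called. The share of EIF genes called was thus near that of bright genes in general. Counted by probe set, 10 of 114 tested on coding EIF genes were called higher and 12 lower, against 3.92% and 5.28% of all probe sets, 9.2% in all. EIF1 alone had 5 of those 12. By direction, 5.05% of all genes were called higher and 6.68% lower, and among the brightest 25% of genes 10.8% and 9.12%. The split of 7 higher to 4 lower became 5 to 6 with quantile normalization and 6 to 5 with median centring. In 25 of the 47 coding genes both shikonin arrays lay above both DMSO arrays and in 7 below, where 28.2% and 27.3% of all genes did so. These shares were not taken among the brightest 25%, where most coding EIF genes lay. The median change of the 47 genes was 0.09, against 0.00 over all genes tested and 0.05 over the brightest 25%. Arrays of 1 group differed by a median of 0.058 for these genes after shikonin and 0.064 in DMSO, on the same log2 scale.

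**Figure D1:**
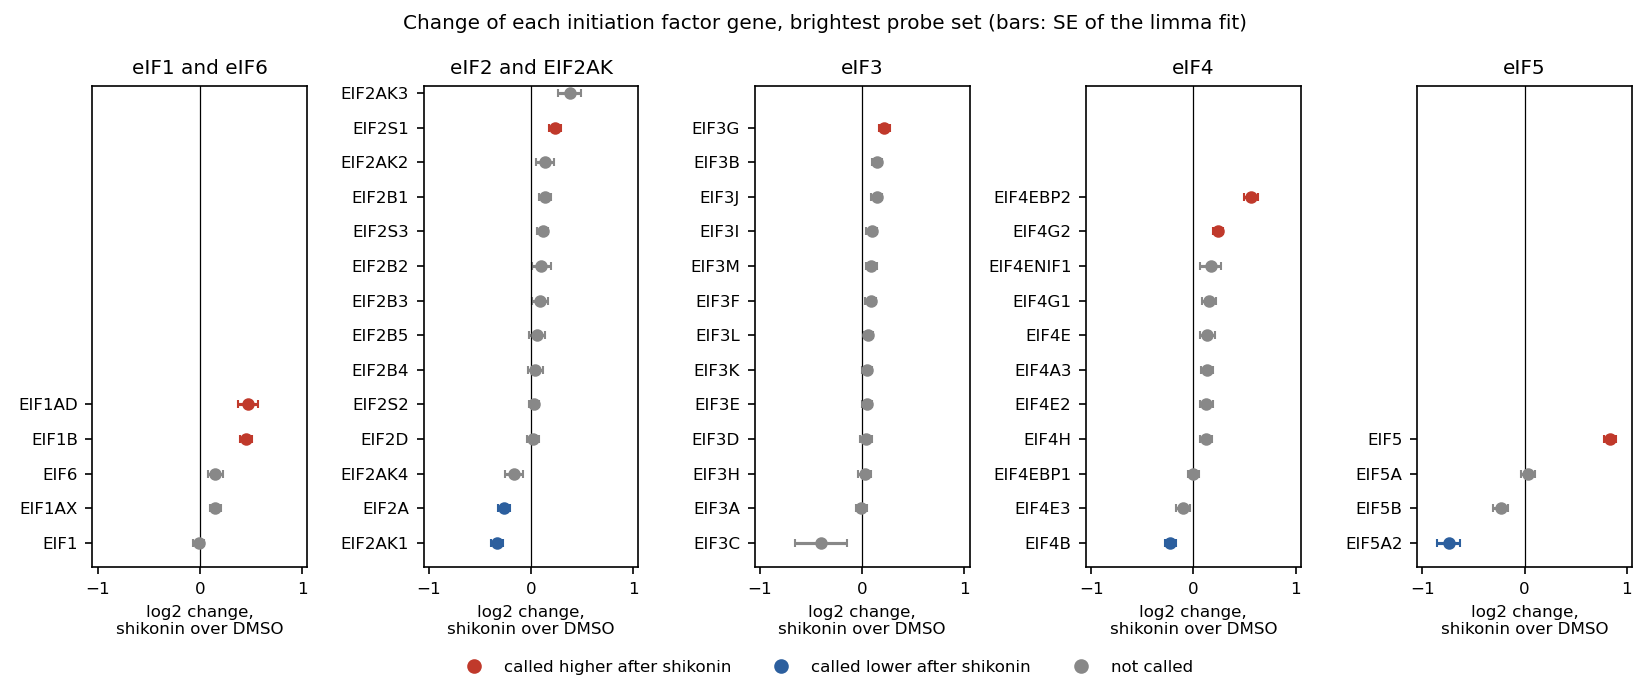
Log2 change of each coding initiation factor gene, shikonin over DMSO, on its brightest probe set, in 5 panels by factor group; bars are the SE of the limma fit with 2 arrays a group. The eIF3 panel is the narrowest apart from EIF3C, while EIF5 (0.84) and EIF5A2 (-0.74) lie at opposite ends of the eIF5 panel.

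**Figure D2:**
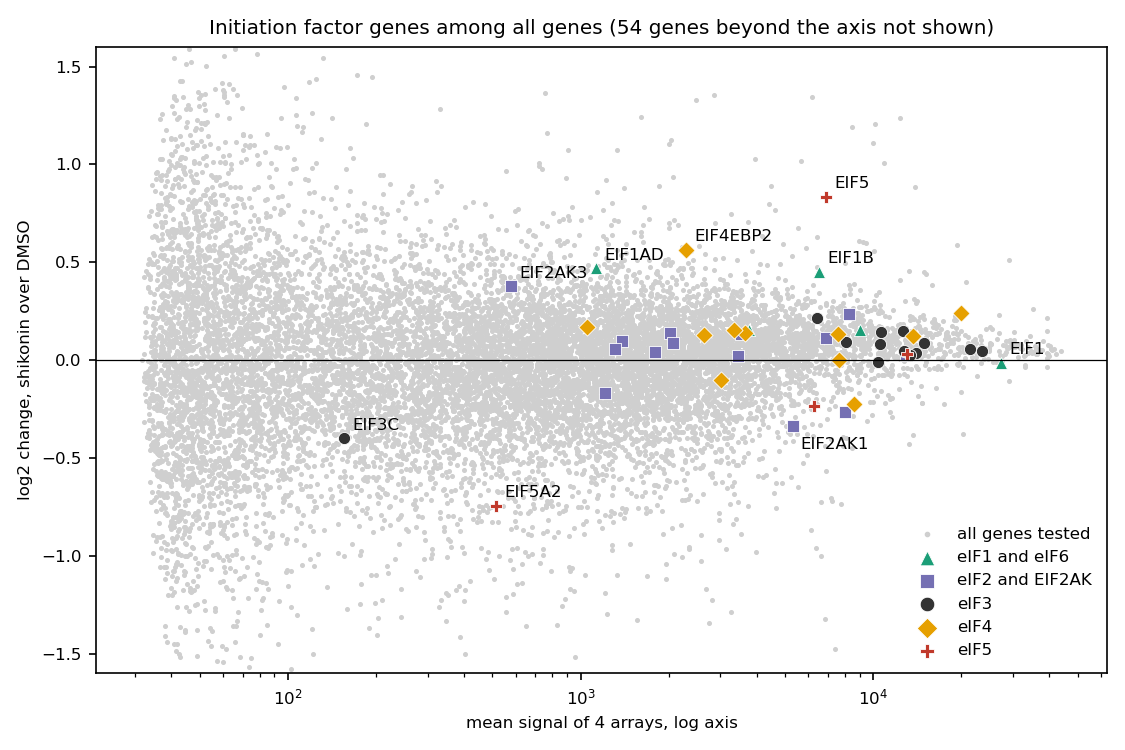
Log2 change, shikonin over DMSO, against mean signal of the 4 arrays (log axis) for the 13554 genes tested (grey, less 54 beyond the axis) and the initiation factor genes by group. Most initiation factors lie at the bright end close to 0, where EIF5 at 0.84 lies above the other initiation factors.

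Among the coding genes, EIF5 and EIF5A2 had the largest changes on their brightest probe sets. EIF5, whose protein makes eIF2 hydrolyse its GTP when the start codon is found, rose. EIF1B, a close paralogue of EIF1, rose too, while EIF1 itself, which holds the scanning ribosome open until the right codon is met, had most of its probe sets lower and its brightest one level. EIF5A2, the rarer paralogue of the elongation factor EIF5A, fell.

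EIF5 read 8492 and 9168 after shikonin against 4780 and 5109 in DMSO on its brightest probe set. Both shikonin arrays lay far above both DMSO arrays. The change was 1.78-fold (log2 change 0.84, SE 0.063, limma adjusted p = 1.09e-04), and it ranked 21st by size among the 365 genes called higher among the brightest 25%. On the next 3 probe sets by brightness the log2 changes were 0.998, 1.07 and 1.01, each called. All 4 raised probe sets end in _s_at or _x_at, marks for probes that can match more than 1 transcript. They can read the same molecules and do not count as separate evidence. The dimmest of the 5, the only one without such a suffix, went the other way. It read 407 and 385 after shikonin against 545 and 538 in DMSO (log2 change -0.44, adjusted p = 0.0469). That call did not survive the omission of any 1 array, whereas the brightest probe set kept its call in each case, with log2 changes of 0.78 to 0.89. Among the 31 EIF genes with several tested probe sets, only EIF5 had calls in both directions, and which transcript forms its probe sets read was not tested. Without a variance trend limma called 0 of the 13554 genes, EIF5 included (adjusted p = 0.15), while 8 EIF genes had an unadjusted p under 0.05.

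EIF1 was the brightest EIF gene, and its 7 tested probe sets disagreed. The brightest read 26241 and 28196 after shikonin against 26460 and 28437 in DMSO, so the groups overlapped (log2 change -0.01, adjusted p = 0.928). It lay at the 99.7th percentile of brightness, and whether its signal could still follow a change at that level was not tested. The next brightest read 9353 and 10112 after shikonin against 16266 and 17525 in DMSO, a log2 change of -0.80 (SE 0.060, adjusted p = 1.10e-04). In all, 5 probe sets were called lower, with log2 changes of -0.80, -0.80, -0.81, -0.91 and -1.22, and 4 of these 5 end in _x_at, a mark for probes that may also bind other transcripts. Such probe sets can read the same molecules, so they do not count as separate evidence. The 1 called probe set without that suffix read 219 and 206 after shikonin against 415 and 622 in DMSO (log2 change -1.22, adjusted p = 0.00527), and its call held without each array in turn. The dimmest, at a mean signal of 130.5, changed by 0.23 and did not pass. Averaged over its probe sets, EIF1 was called lower (log2 change -0.62, adjusted p = 0.0024), as was its brightest one after quantile normalization (-0.11, adjusted p = 0.0401).

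EIF1B read 7252 and 7859 after shikonin against 5492 and 5534 in DMSO. The DMSO arrays were nearly equal and both shikonin arrays lay above them (1.37-fold, log2 change 0.45, SE 0.060, adjusted p = 0.00223), and the call held without each array in turn. EIF1AD, a protein related to eIF1A by its domain, read 1320 and 1296 against 876 and 1010 (log2 change 0.47, adjusted p = 0.0161). Its dimmer probe set changed by 0.25 without passing, and omitting DMSO 1 (0.0687) or shikonin 1 (0.0567) ended the call. EIF1AX, which encodes eIF1A and helps eIF1 in scanning, was at 9431 and 9539 after shikonin against 8739 and 8325 in DMSO, which did not pass (log2 change 0.15, adjusted p = 0.11). Nor did EIF6, which keeps large ribosomal subunits from joining small ones too early (log2 change 0.15, adjusted p = 0.217).

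EIF5A2 was the dimmest coding gene called, at 379 and 386 after shikonin against 642 and 652 in DMSO. Arrays within each group were nearly equal and the groups lay far apart (1.67-fold lower, log2 change -0.74, SE 0.11, adjusted p = 0.00433). Of its 2 other probe sets, 1 was called lower as well (log2 change -0.88, in 2 of the 4 fits with an array omitted) and the other changed by -0.39 without passing. EIF5A, which eases peptide bond formation at difficult sequences and carries the amino acid hypusine, changed by 0.03 (adjusted p = 0.83). EIF5B, the GTPase that joins the ribosomal subunits, read 5774 and 5712 after shikonin against 6315 and 7235 in DMSO on its brightest probe set (log2 change -0.23, adjusted p = 0.0721). Its 6 probe sets ran from -0.65 to 0.18, and the only one called was dim and passed in 1 of the 4 fits with an array omitted, at 216 and 251 after shikonin against 373 and 366 in DMSO. With 4 genes, the eIF5 group had the widest range of the groups, 1.58, around a median of -0.10. That median was -0.16 without DMSO 1, -0.047 without DMSO 2, -0.053 without shikonin 1 and -0.17 with quantile normalization.

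**Figure D3:**
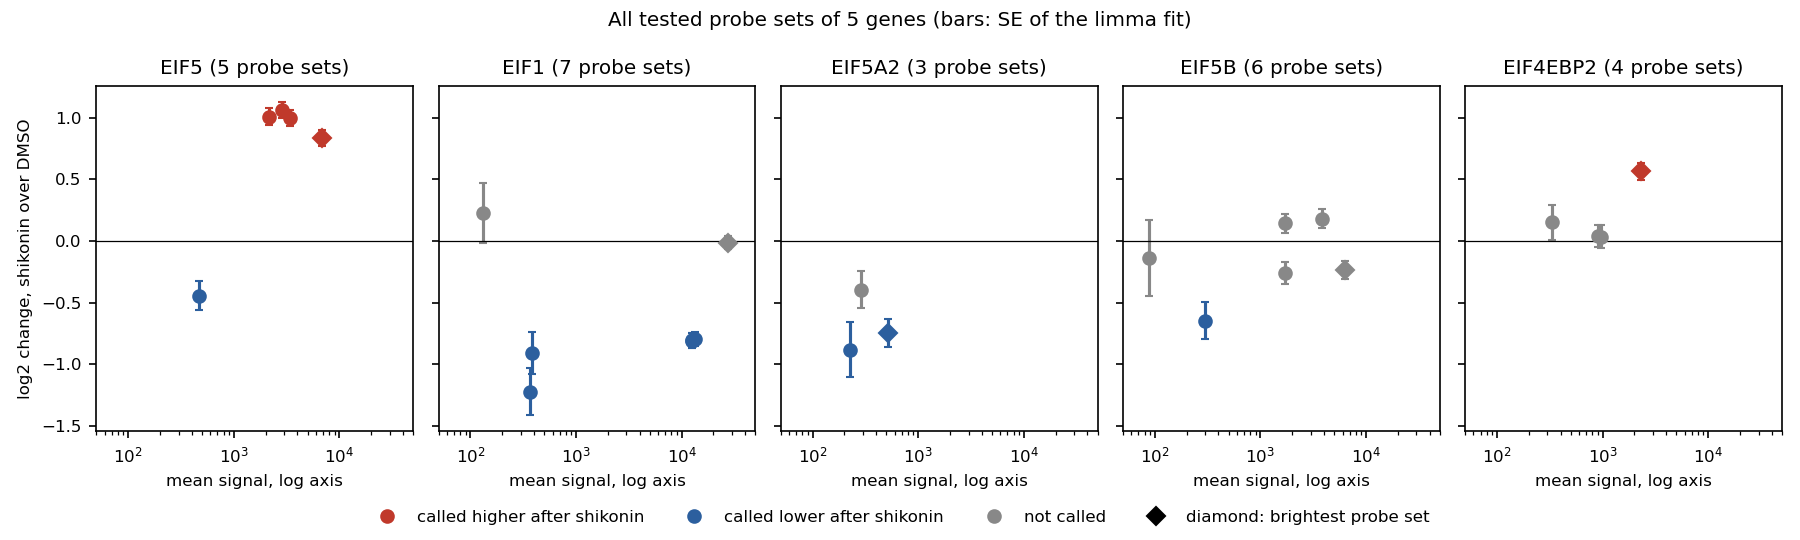
Log2 change of every tested probe set of 5 genes, shikonin over DMSO, against its mean signal (log axis); bars are the SE of the limma fit and diamonds the brightest probe set. EIF5 has 4 probe sets near 1 and a dim one at -0.44, EIF1 has 5 near or below -0.80 under a level brightest one, and EIF4EBP2 has 1 raised among 4.

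The sequences before the transcription starts of these genes are shown since they moved in different directions. Each line gives the 250 bases upstream of a start in RefSeq's table for GRCh38.p14, written from 5' to 3' on the gene's strand. Capitals mark matches on either strand to any of 5 motifs: the heat shock elements GAANNTTC and TTCNNGAA, the antioxidant response element TGACNNNGC, the cyclic AMP response core TGACGT and the E-box CACGTG. The windows lie at chr14:103333987-103334236 (+) and chr14:103334638-103334887 (+) for the 2 starts listed for EIF5, chr17:41688635-41688884 (+) for EIF1, chr3:40309457-40309706 (+) for EIF1B and chr3:170908638-170908887 (-) for EIF5A2.
EIF5, first start: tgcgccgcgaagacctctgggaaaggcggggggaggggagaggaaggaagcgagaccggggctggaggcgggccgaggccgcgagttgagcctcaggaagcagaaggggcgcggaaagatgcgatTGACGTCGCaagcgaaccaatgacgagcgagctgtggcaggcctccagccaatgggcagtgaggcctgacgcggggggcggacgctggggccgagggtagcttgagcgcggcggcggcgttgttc
EIF5, second start: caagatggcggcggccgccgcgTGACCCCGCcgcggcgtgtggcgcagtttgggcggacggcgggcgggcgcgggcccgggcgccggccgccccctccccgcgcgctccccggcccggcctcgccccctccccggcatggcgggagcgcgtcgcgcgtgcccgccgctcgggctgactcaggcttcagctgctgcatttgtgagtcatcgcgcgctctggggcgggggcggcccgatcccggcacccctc
EIF1: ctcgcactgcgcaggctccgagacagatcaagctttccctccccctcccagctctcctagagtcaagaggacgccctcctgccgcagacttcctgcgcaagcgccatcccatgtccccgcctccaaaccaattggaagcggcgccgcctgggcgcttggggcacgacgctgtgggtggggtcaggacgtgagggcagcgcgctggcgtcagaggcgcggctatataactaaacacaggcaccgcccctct
EIF1B: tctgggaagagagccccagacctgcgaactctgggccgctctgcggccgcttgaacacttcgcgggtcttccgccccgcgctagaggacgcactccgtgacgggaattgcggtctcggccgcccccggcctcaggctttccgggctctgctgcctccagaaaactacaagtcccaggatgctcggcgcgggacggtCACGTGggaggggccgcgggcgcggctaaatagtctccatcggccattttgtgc
EIF5A2: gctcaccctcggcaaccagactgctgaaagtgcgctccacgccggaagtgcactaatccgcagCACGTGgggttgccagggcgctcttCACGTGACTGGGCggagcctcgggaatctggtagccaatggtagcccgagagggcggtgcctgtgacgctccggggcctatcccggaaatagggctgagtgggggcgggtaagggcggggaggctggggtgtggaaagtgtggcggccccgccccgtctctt

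Both EIF5 windows held 1 match to the antioxidant response element, which in the first window overlapped a cyclic AMP response core. The EIF5A2 window held 1 such match too, overlapping 1 of its 2 E-boxes, so the motif was present upstream of a gene that rose and of one that fell. EIF1B had 1 E-box and EIF1 had no match to any of the 5. None of these windows held a heat shock element. Over the first-listed windows of 27303 genes, 11% held the antioxidant response element, 7.42% the response core and 6.49% the E-box, and 5.85% and 6.72% the heat shock elements. Of the 40 coding EIF genes with a window in the table, 7 held the antioxidant response element, 3 the response core and 11 the E-box, while 1 and 2 held the heat shock elements. A match describes letters only and shows no binding.

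Transcripts of eIF2 and its kinases moved less and in mixed directions. Of 14 genes, EIF2S1 was called higher and EIF2AK1 and EIF2A lower (21.4%), where 11.7% of all genes and 19.9% of the brightest 25% were called. The median change was 0.07. It was 0.030 without shikonin 1 and 0.046 without DMSO 1. EIF2AK1, known as HRI, is the kinase that answers haem shortage, oxidative stress and signals from stressed mitochondria. It read 4578 and 4796 after shikonin against 5999 and 5831 in DMSO, with no overlap (1.26-fold lower, log2 change -0.34, SE 0.058, adjusted p = 0.00832). With shikonin 1 omitted its adjusted p was 0.0508, and its dimmer probe set changed by -0.13 without passing.

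The other 3 kinases did not pass. EIF2AK3, known as PERK, the kinase of the endoplasmic reticulum, read 635 and 678 after shikonin against 481 and 524 in DMSO. These groups did not overlap either, at a log2 change of 0.38 (SE 0.11, adjusted p = 0.0665). EIF2AK3 passed in the fit on gene means (0.0453), but with only 1 tested probe set its log2 change there was the same. EIF2AK2, known as PKR, which senses double-stranded RNA, read 2181 and 2042 against 1761 and 2087, so its groups overlapped (log2 change 0.14, adjusted p = 0.407). EIF2AK4, known as GCN2, which senses uncharged tRNA, read 1154 and 1125 after shikonin against 1362 and 1205 in DMSO (log2 change -0.17, adjusted p = 0.295).

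EIF2S1 encodes eIF2 alpha, the subunit that these kinases phosphorylate. It read 8693 and 9243 after shikonin against 7609 and 7607 in DMSO (1.18-fold, log2 change 0.24, adjusted p = 0.0293), and omitting any 1 array ended the call (0.0558 to 0.179). Its 2 other probe sets changed by 0.27 and 0.11 without passing. EIF2S2, the beta subunit, read 12842 and 13372 against 12781 and 12938 and overlapped between groups. EIF2S3, the gamma subunit that binds GTP, read 7147 and 7212 after shikonin against 6850 and 6427 in DMSO without passing (log2 change 0.11, adjusted p = 0.262). Its dimmer probe sets went the other way, at -0.13 and -0.25, also without passing.

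None of the 5 subunits of eIF2B, the exchange factor that reloads eIF2 with GTP and that phosphorylated eIF2 blocks, passed in limma, and 1 of them had an unadjusted p under 0.05. Their log2 changes were all small and above 0, between 0.04 for EIF2B4 and 0.14 for EIF2B1. EIF2A, a separate protein that can deliver initiator tRNA without GTP, read 6946 and 7558 after shikonin against 8660 and 8760 in DMSO (log2 change -0.27, adjusted p = 0.0244). Omitting DMSO 1 (0.0592), DMSO 2 (0.0742) or shikonin 1 (0.153) ended the call. EIF2D, which acts in initiation and ribosome recycling, changed by 0.02 (adjusted p = 0.878).

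**Figure D4:**
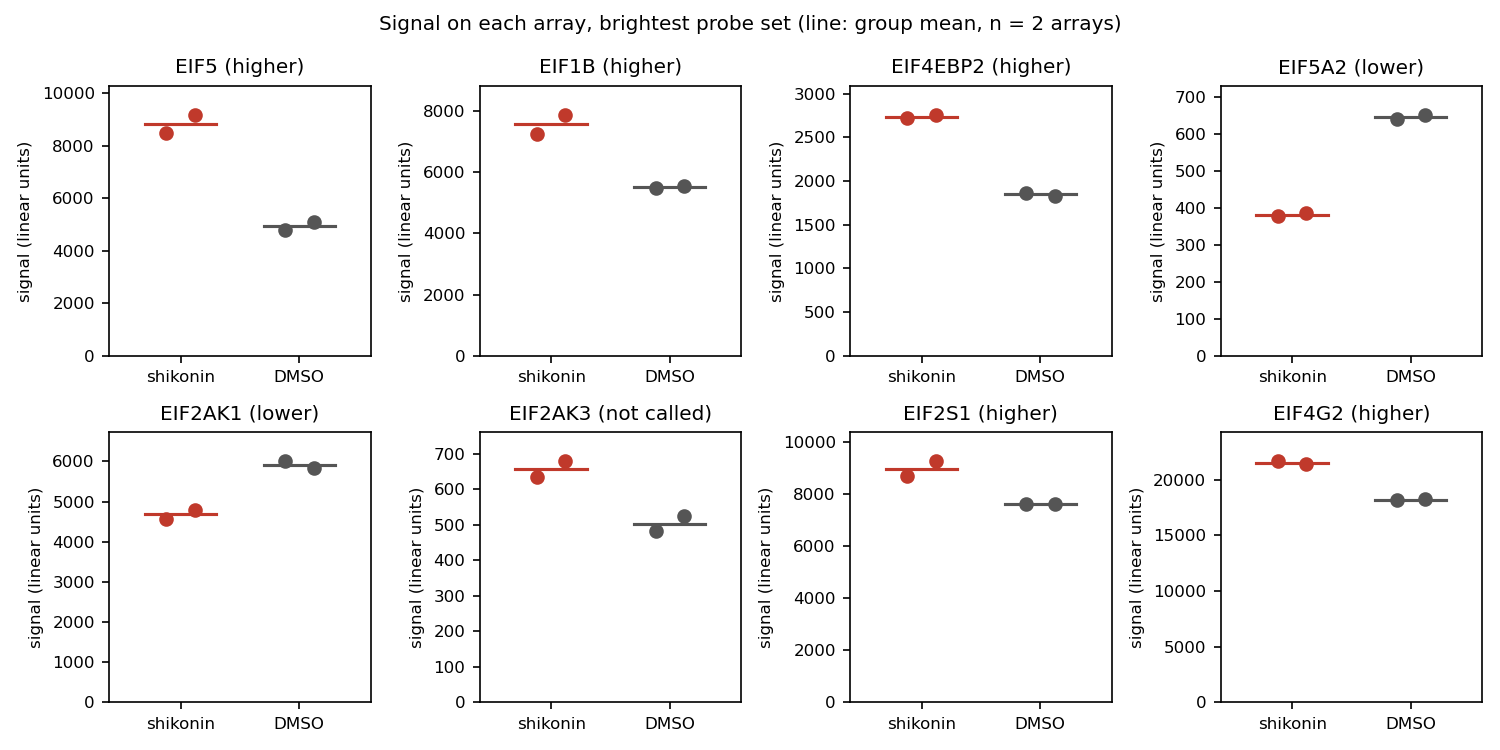
Signal on each array for 8 genes on their brightest probe sets, shikonin left and DMSO right, on linear axes that start at 0; points are arrays and lines the means of 2. All 8 genes show gaps between groups wider than those within them, and the gaps between groups of EIF2S1 and EIF4G2 are small beside their levels.

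The eIF3 complex, the large scaffold that holds the small subunit, the initiator and the message together, had the smallest interquartile range of change of the 5 coding groups, 0.054. Of 13 tested genes only EIF3G, an RNA-binding subunit, was called (7.69%, against 11.7% of all genes and 19.9% of the brightest 25%). EIF3G read 6986 and 6851 after shikonin against 6013 and 5901 in DMSO. The 2 groups were clearly apart but close in level (1.16-fold, log2 change 0.22, SE 0.054, adjusted p = 0.0384), and the call ended on omitting any 1 array (0.0868 to 0.173) and with median centring (0.077) or quantile normalization (0.0629). The median change of the group was 0.06, and it was -0.033 with quantile normalization, so it has no settled direction. It was 0.11 without DMSO 2 and 0.090 without shikonin 1. In 12 of the 13 genes the change was under 0.25 in size. The exception was EIF3C at -0.40, read by a dim probe set with a mean signal of 155, since 3 other probe sets are shared with EIF3CL and were not used.

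Among the other eIF3 genes, EIF3E read 23545 and 24206 after shikonin against 22884 and 23329 in DMSO (log2 change 0.05), and EIF3L changed by 0.06. EIF3A, the largest subunit, overlapped between groups at 10480 and 10277 against 10603 and 10270. EIF3B, a core subunit with a propeller domain, was at 13225 and 13370 after shikonin against 11708 and 12324 in DMSO without passing (log2 change 0.15, adjusted p = 0.113). EIF3J, a loosely bound subunit at the messenger channel, was likewise at 0.14 (adjusted p = 0.14).

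In the eIF4 group, EIF4EBP2 and EIF4G2 were called higher and EIF4B lower among 11 tested genes, with a median change of 0.14. The share called was 27.3%, against 11.7% of all genes and 19.9% of the brightest 25%. EIF4EBP2, a repressor that competes with eIF4G for eIF4E, read 2718 and 2756 after shikonin against 1861 and 1832 in DMSO. The groups were far apart relative to their own spread (1.48-fold, log2 change 0.57, SE 0.066, adjusted p = 0.00124), and the call held without each array in turn. Its 3 dimmer tested probe sets did not follow, at 0.04 to 0.15, so the rise rests on 1 probe set, and the gene was not called on the mean of its probe sets. EIF4EBP1, the best known member of that family, was level at 7684 and 7566 against 7549 and 7711.

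EIF4G2, known as DAP5, an eIF4G relative that lacks the eIF4E-binding site, read 21650 and 21446 after shikonin against 18158 and 18290 in DMSO. All arrays of the 2 groups were apart, by 1.18-fold (log2 change 0.24, SE 0.046, adjusted p = 0.0126), and omitting shikonin 1 (0.0842) or shikonin 2 (0.0666) ended the call. EIF4G1, the main scaffold of the cap-binding complex, read 3441 and 3599 against 3047 and 3278 (log2 change 0.15, adjusted p = 0.194). EIF4E, which binds the cap, read 3811 and 3804 after shikonin against 3658 and 3272 in DMSO (log2 change 0.14, adjusted p = 0.27), and its relatives EIF4E2 and EIF4E3 changed by 0.13 and -0.10 without passing.

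EIF4B, which stimulates the helicase eIF4A, read 7843 and 7970 after shikonin against 9120 and 9353 in DMSO (log2 change -0.22, adjusted p = 0.0284). Its 2 other probe sets lay at -0.08 and 0.00, and omitting any 1 array ended the call (0.0622 to 0.139). EIF4H, the other helper of eIF4A, changed by 0.12 (adjusted p = 0.231). EIF4A3, a helicase of the exon junction complex, changed by 0.14 (adjusted p = 0.181). EIF4ENIF1, which carries eIF4E into the nucleus, changed by 0.17 (adjusted p = 0.365). EIF4A1 shared each of its probe sets with other symbols and was not analysed here. The only probe set of EIF4A2 alone was too dim to test, at 25.8 and 25.4 after shikonin against 3.80 and 12.1 in DMSO.

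Of the 4 non-coding partners, 3 were tested and none passed in limma, with 1 at an unadjusted p under 0.05. EIF3J-DT, transcribed divergently from EIF3J, read 313 and 250 after shikonin against 349 and 440 in DMSO (log2 change -0.47, adjusted p = 0.127). EIF1B-AS1, EIF2AK3-DT and EIF2AK3-AS1 were dim, with mean signals of 74.4, 39.8 and 37.7, and the last was not tested. EIF2AK3-DT read 38.3 and 60.1 after shikonin against 6.34 and 54.4 in DMSO, so its groups overlapped (log2 change 0.84, SE 0.69, adjusted p = 0.507). EIF1B-AS1 changed by -0.45 without passing (adjusted p = 0.428).

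The 11 calls differed in how far they rested on single arrays. EIF5, EIF1B, EIF4EBP2 and EIF5A2 passed without each of the 4 arrays, whereas EIF2S1, EIF3G and EIF4B failed without any 1 of them. Whichever array was left out, fewer EIF genes were called, and fewer of all genes as well, higher and lower alike. The drop was thus not particular to EIF genes.

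**Figure D5:**
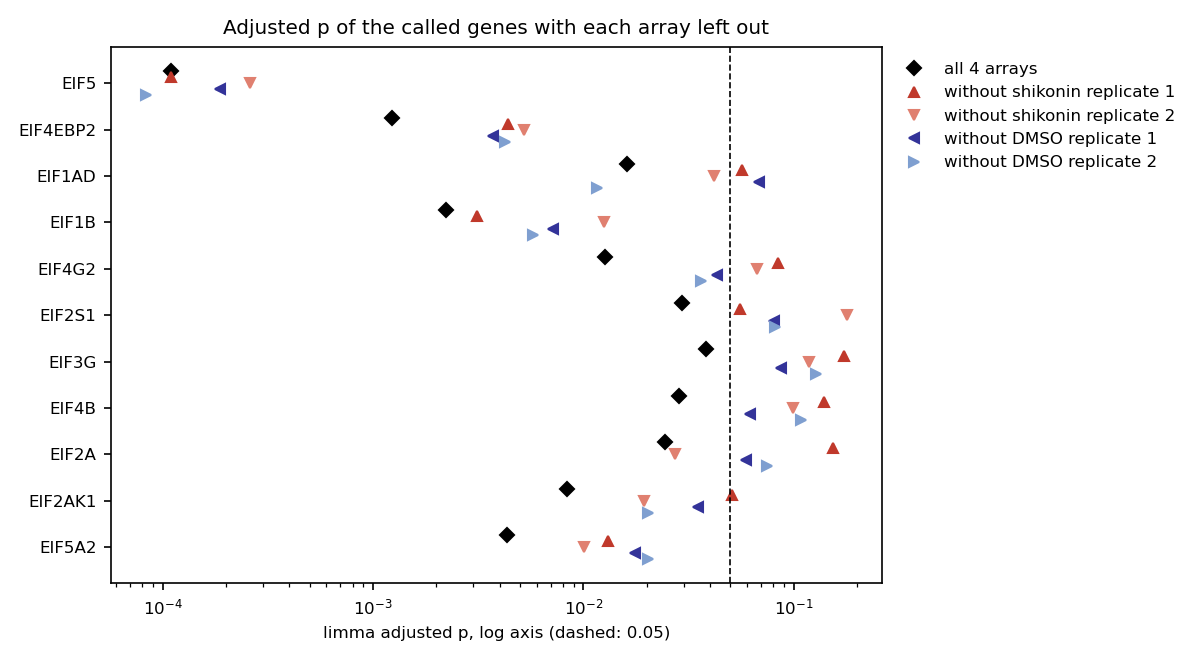
Limma adjusted p (log axis) of the 11 EIF genes called with all 4 arrays (black diamonds) and with each array left out (triangles); the dashed line is the threshold of 0.05. EIF5, EIF4EBP2, EIF1B and EIF5A2 stay left of the line throughout, and EIF2S1, EIF3G and EIF4B lie right of it whichever array is left out.

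Neighbouring parts of the pathway were read through 4 lists drawn from textbook knowledge. Of 15 regulators of eIF2 kinases and eIF2 phosphatases, 1 rose and 2 fell, with a median change of 0.06. That was 20%, against 11.7% of all genes and 19.9% of the brightest 25%. PPP1R15B, the constitutive subunit that guides phosphatase 1 to eIF2, read 3806 and 3307 after shikonin against 4700 and 5091 in DMSO (log2 change -0.46, adjusted p = 0.00801) and passed without each array in turn. Its stress-induced counterpart PPP1R15A, known as GADD34, read 965 and 1115 against 1371 and 1340 (log2 change -0.38, adjusted p = 0.0354). Its other probe set lay at 0.09, and omitting DMSO 1 (0.108), DMSO 2 (0.0827) or shikonin 1 (0.164) ended the call. GCN1, the activator of GCN2 on stalled ribosomes, was the member that rose, at 1852 and 1791 after shikonin against 1496 and 1442 in DMSO (log2 change 0.31, adjusted p = 0.0331), and omitting any 1 array ended the call (0.0692 to 0.138).

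Of 20 partners of the cap-binding complex and genes of the mTORC1 pathway, 1 rose and 3 fell, with a median of 0.03. The share called was 20%, against 11.7% of all genes and 19.9% of the brightest 25%. DDIT4, an inhibitor of mTORC1 known as REDD1, read 2270 and 2014 after shikonin against 3242 and 4380 in DMSO (1.76-fold lower, log2 change -0.81, adjusted p = 0.00484), and its call held without each array in turn. DDX3X, a helicase that aids scanning, read 10034 and 10640 after shikonin against 12584 and 12291 in DMSO (log2 change -0.27, adjusted p = 0.0157), with its 3 other probe sets called lower as well. Omitting DMSO 1 (0.0576) or shikonin 1 (0.109) ended the call of the brightest. AKT1S1, an mTORC1 inhibitor, read 884 and 1062 after shikonin against 1291 and 1347 in DMSO (log2 change -0.44, adjusted p = 0.0293), while its other probe set changed by 0.26 without passing. Its call ended on omitting DMSO 1 (0.0587), DMSO 2 (0.0964) or shikonin 1 (0.131). MKNK2, a kinase of eIF4E, was the member that rose, at 9648 and 9033 after shikonin against 7699 and 7834 in DMSO (log2 change 0.27, adjusted p = 0.0196), as did its other probe set (0.33). Omitting DMSO 1 (0.0647) or shikonin 1 (0.131) ended the call. None of 7 other recruitment and recycling factors and none of 9 elongation and termination factors was called by limma on its brightest probe set. The medians were 0.08 and 0.06. Unadjusted limma p was under 0.05 for 1 and 3 of them, and for 3799 of all 13554 genes. Another probe set of ETF1, a termination factor, was called higher (log2 change 0.35). In the cap-binding list, PAIP1 was not called on its brightest probe set, but 3 of its 4 other tested ones were called lower.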

How the data were processed

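Biotin-labelled RNA of 4 U937 samples was read on Affymetrix U133 Plus arrays, per the labels' protocols. The authors' deposited values are linear probe set intensities. The sources used here do not name the software that made them. Trimmed of the lowest and highest 2%, the mean intensity was 500.1 on each array, so changes are relative to the array as a whole. All sample columns were used.

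Intensities were taken as log2(signal + 9.94), the pseudocount being the 20th percentile of all values. The 62 controls and the dimmest 40% of the rest were left out, which kept 32768 of 54675 probe sets. Differences were tested with limma 3.58.1 in R 4.3.3 (two-sided, variance trend, Benjamini-Hochberg adjustment), with 2 residual and 7.1 prior degrees of freedom, and the procedure was tested on simulated data. Each gene was read by its brightest probe set with 1 symbol. All 52 EIF symbols matched RefSeq by gene identifier. The labels do not say whether the samples of a group were grown separately. If they were not, the p-values reflect technical spread only.

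The genes, lists and rules were chosen with earlier results of these data known. The text gives arrays and tests for each EIF gene called and for set members of the pathway (kinases, eIF2 subunits, EIF4E, EIF4G1, EIF4A1, EIF4A2, EIF4EBP1, EIF5, EIF1), and names up to 4 called genes a list. The labels do not say whether samples with the same replicate number were paired. Differences between numbers 1 and 2 correlated at 0.0216 between groups, which cannot show how the samples were prepared. The 15 alternatives covered pseudocount, filter, scaling, variance model, probe set choice, replicate block and leaving out each array.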

Additional observations from a re-analysis of the deposited data

How the results depend on the processing

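With 2 arrays a group, precision is limited by their number. Limma without a variance trend called 0 genes (smallest adjusted p 0.0764), so 0 EIF genes higher and 0 lower, although 2417 genes and 8 EIF genes had an unadjusted p under 0.05. Without the filter on dim probe sets, 4 EIF genes were called higher and 2 lower, and 350 genes in all were called higher, and EIF2A, EIF2S1, EIF3G, EIF4B and EIF4G2 no longer passed. With the mean of a gene's probe sets EIF1AD, EIF2AK1, EIF4B, EIF4EBP2 and EIF4G2 no longer passed. Without _x_at and _s_at probe sets, 4 EIF genes were called higher. There EIF5 was read by its dimmest probe set alone and reversed to -0.44 (adjusted p = 0.051). The eIF5 median was -0.44 and the eIF2 median 0.14, by construction. Other probe sets stood for some genes, and EIF5A, EIF2AK1, EIF2B4 and EIF2D had none left and dropped out. The eIF3 median was -0.033 with quantile normalization, and the cause was not tested. With the replicate block, 11 EIF genes were called higher and 1238 genes in all, and EIF1AX, EIF2AK3, EIF3B, EIF3J and EIF5B were gained. The labels give the samples only a number, so this is not read as a paired result. Leaving out each array, which leaves a lone sample assumed to vary like the other group, gave 3 to 5 EIF genes called higher and 1 to 3 lower, 303 to 446 genes higher and 594 to 681 lower, and medians of 0.030 to 0.10 for eIF2, 0.046 to 0.11 for eIF3, 0.10 to 0.14 for eIF4 and -0.16 to -0.047 for eIF5. Over 20 named EIF genes and 298 results under the alternatives, 246 kept their side of the threshold, 46 lost the call with the same sign, 5 gained it and 1, EIF5 as above, lost it with the opposite sign. Of the 246, 9 changed sign without being called, in EIF1, EIF2AK4, EIF2S2, EIF2S3 and EIF4EBP1.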
